A study of Drosophila melanogaster with 12 samples.

Results

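Female and male pupae of the fruit fly Drosophila melanogaster were compared over all genes of an expression array. The members of the comparison were the 2 arrays of female pupae and the 2 arrays of male pupae, 4 of the 12 arrays of the study, and every probe set that is no array control entered it, 18769 in all. The other arrays held larvae of the last instar and adults of both sexes, 2 per sex and stage. All 6 groups came from the outbred laboratory population LHm, carried no mutation or treatment that the labels name, and were kept at 25 °C. Each array held RNA of whole animals, 10 per biological replicate, so every tissue of the pupa contributes to each value. The labels give no age within the pupal stage. Sex and pupal age can therefore not be told apart in these 4 arrays.

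The pupa is the stage at which larval tissues are broken down and the adult body is built from imaginal discs and histoblasts. A pulse schedule of the steroid ecdysone runs it, and an adult cuticle is secreted, pigmented and hardened inside the pupal case. The testis already holds spermatocytes and differentiating spermatids at this stage, whereas the ovary has hardly begun to build egg chambers. Sex itself is set by a splicing cascade in which Sxl acts on tra, and tra on the transcription factor genes dsx and fru.

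Values are log2 expression levels computed by the authors with RMA, and a difference is the female mean minus the male mean, so that a positive value is higher in females and 1 unit is 2-fold. Each difference is followed by ± its standard error (SE), with n = 2 arrays in each sex. Adjusted p-values are Benjamini-Hochberg values over all probe sets from limma. A probe set or gene is called at an adjusted p under 0.05, and gene lists are mainly counted with a difference of at least 2-fold besides. Levels of different genes depend on their probes and are not compared with each other. In whole animals, fewer cells of a type and less RNA per cell cannot be told apart.

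The 2 arrays of a sex agreed far more closely than the sexes did. Over all probe sets the correlation was 0.9938 between the female arrays and 0.9967 between the male arrays, against 0.8319 to 0.8366 between a female and a male array. All differences stand on a shift: the median over all probe sets was 0.37 higher in females, and 45 bacterial control probe sets had a median of 0.362 with a range of 0.007 to 0.982. A second scaling, here called recentring, subtracts from an array its median deviation from the 12-array mean of the probe sets, and left a median of 0.10. Subtracting the median of each array gave 0.74 instead. The shift was not the same at all levels. Its median was 0.42 for probe sets with a pupal mean of 4 to 6, and 0.11 for those of 12 to 16. Recentring left 0.15 and -0.16 in these, so it turned the median of the brightest probe sets below 0. Some small female-higher differences are therefore given beside their recentred value. Recentring lowers every pupal difference by the same amount, so those given without it would be smaller too.

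Markers of pupal tissues were as follows. The salivary glue genes Sgs3, Sgs7 and Sgs8 had values from 4.42 to 5.85 in the 4 pupal arrays and group means of 14.78 to 15.24 in larvae. The flight muscle actin gene Act88F was at 14.45 to 14.63 in pupae of both sexes, and its larval means were 5.65 and 5.25. The larval fat body genes Lsp2 and Fbp1 were between 14.69 and 15.09 in pupae of both sexes, with no called sex difference. The 6 testis germ cell markers had means of 3.34 to 7.02 in female pupae and 3.99 to 13.99 in male pupae. The sexes were closest for aly, with means of 3.34 and 3.99. Of 6 ovary markers, osk, yl and the eggshell genes Vm26Aa and Cp36 had means of 11.22 to 14.66 in adult females. Their values in female pupae were 4.73 to 6.43. For bcd these were 7.41, and 5.41 and 4.99, and for grk 8.87, and 9.07 and 9.18. The 4 accessory gland markers lay between 3.07 and 5.83 in pupae of both sexes. The markers Lsp1beta and ninaE were not analysed here.

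Large differences ran mostly one way. Of the 18769 probe sets, 9745 were called higher in females (51.9%) and 2690 in males (14.3%), and by at least 2-fold 771 (4.11%) and 1949 (10.4%). The counts that follow take 1 probe set per gene. Of 11982 genes, 749 were called at least 16-fold higher in male pupae (6.25%) and 28 in female pupae (0.234%). At a minimum of 2-fold, 1746 genes were higher in males (14.6%) and 636 in females (5.31%). Counts of list members at that minimum are to be read beside these shares. Without a minimum the order turned, with 6028 genes higher in females (50.3%) and 2377 in males (19.8%). That last order depends on the shift: after recentring 2396 genes were higher in females (20%) and 2894 in males (24.2%). At the 2-fold minimum the recentred counts were 338 in females (2.82%) and 1916 in males (16%). At that minimum the order also depended on the scaling: subtracting array medians gave 2584 genes female-higher and 1582 male-higher by at least 2-fold.

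**Figure D1:**
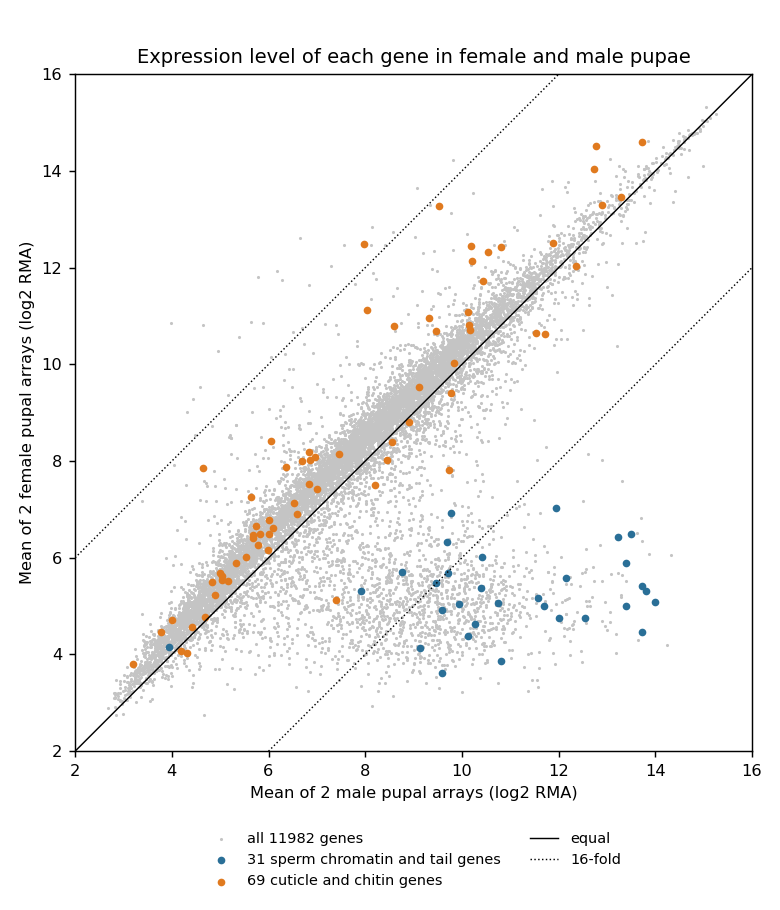
Each point is a gene, with the mean log2 level of the 2 male pupal arrays on the x axis and of the 2 female pupal arrays on the y axis. Of the 31 sperm chromatin and tail genes 30 lie far below the line of equality, while the 69 cuticle and chitin genes lie mostly on or above it, up to a difference of 4.50.

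The largest differences of all were male-higher, and included many genes known from the testis. CG9920 had values of 3.89 and 4.50 on the female arrays and 14.29 and 14.21 on the male arrays. Its difference of -10.05 ± 0.19 (adjusted p = 4.67e-11) was the largest of all genes, and the sexes did not overlap. The 15 largest such differences lay between -10.05 and -8.30. Female arrays ranged from 3.57 to 5.75 over these 15 genes and male arrays from 12.44 to 14.29, so the groups were separated in each by more than 6 units. The female values lie near the lower end of the range of the arrays.

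Among the 15 were several genes of known function in sperm. Mst77F, which encodes a chromatin protein of the condensed sperm head, stood at 5.08 and 5.10 in females and at 13.98 and 14.00 in males. The testis tubulin gene betaTub85D, whose product builds the sperm axoneme, had 5.04 and 5.58 in females and 13.86 and 13.74 in males. The genes S-Lap7 and S-Lap8, which encode leucyl aminopeptidases of the sperm tail, differed by -8.40 ± 0.14 and -8.30 ± 0.21. The testis thioredoxin gene TrxT was the only X-linked gene of the 15 and differed by -8.39 ± 0.21. Of the 15 genes 8 had only a CG number as symbol, for example CG31226 (-9.33 ± 0.29) and CG17377 (-9.16 ± 0.25). CG17377 has a second probe set, which was not called (-0.36, adjusted p = 0.0898).

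**Figure D2:**
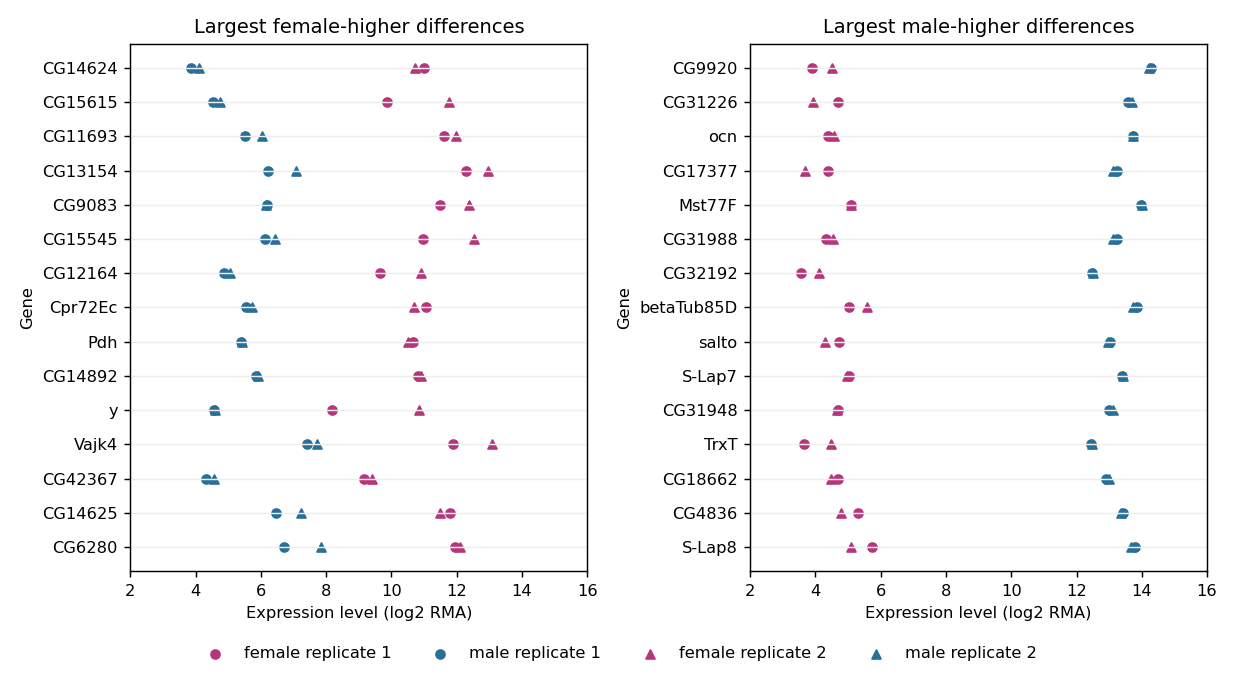
Log2 levels of the 15 genes with the largest female-higher (left) and male-higher (right) differences in pupae, with 1 symbol for each of the 4 arrays. In the right panel the arrays of a sex lie close together, and in the left panel y, CG15615 and CG15545 show a wide gap between the 2 female arrays.

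Sperm chromatin and tail genes were higher in male pupae almost without exception. Of 31 measured members, 30 were called male-higher by at least 2-fold and none female-higher, with a median of -5.74 beside 0.34 over all genes. All 8 sperm chromatin genes were among them. The protamine gene ProtA had 4.03 and 3.72 in females and 10.78 and 10.84 in males, ProtB differed by -5.74 ± 0.22, and the transition protein gene Tpl94D by -5.68 ± 0.14. Protamines and transition proteins replace histones as the spermatid nucleus condenses.

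The genes of the sperm tail and its sheath had the widest spread. At one end was ocn, with 4.38 and 4.56 in females and 13.73 and 13.74 in males. The cysteine-rich Mst84D genes differed by -7.50 (Mst84Dc), -7.26 (Mst84Da), -7.00 (Mst84Db) and -6.57 (Mst84Dd), and dj, which encodes a sperm tail protein, by -4.98 ± 0.14. Mst36Fb was the exception, with 4.14 and 4.18 in females and 4.01 and 3.89 in males (0.21 ± 0.20, adjusted p = 0.369). It was near the lower end of the arrays in both sexes. All 6 axoneme genes were male-higher, from Dic61B at -2.60 to betaTub85D at -8.49.

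Testis copies of housekeeping genes followed. Drosophila has many retrocopies and paralogs of genes for the proteasome and mitochondria that are used in the male germ line in place of the ubiquitous gene. Of 42 measured members, 36 were male-higher by at least 2-fold and 0 female-higher (median -4.16), and the list also took in a few ubiquitous genes such as Eno and RFeSP. Among proteasome genes 12 of 13 were male-higher, for example Prosalpha6T, with 5.45 and 5.65 in females and 10.08 and 10.10 in males. Among mitochondrial genes 18 of 19 were. The chaperonin gene Hsp60C differed by -7.95 ± 0.23, and the cytochrome oxidase subunit genes COX4L and COX7AL by -7.38 ± 0.15 and -7.08 ± 0.16. The ubiquitous gene RFeSP, an iron-sulphur subunit gene of the respiratory chain, went the other way, at 11.77 and 11.67 in females and 11.18 and 11.19 in males (0.54 ± 0.11), and was no longer called after recentring (0.27, adjusted p = 0.0987).

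Regulators of transcription in spermatocytes were male-higher too. Of 17 measured, 12 were male-higher by at least 2-fold, with a median of -1.97. All 5 testis TAFs, which are germ line variants of general transcription factor subunits, were among them. Of these, sa had 4.61 and 4.45 in females and 8.10 and 8.07 in males, and can had 4.35 and 4.60 against 7.06 and 6.74. For Taf12L the probe set used gave -4.27 ± 0.30 and a second one 0.20 (adjusted p = 0.317). Within the testis meiotic arrest complex vis (-3.95 ± 0.14), topi (-2.56 ± 0.13) and 2 others passed the 2-fold minimum. The remaining differences were -0.65 ± 0.19 for aly and -0.61 for comr, which were called, and 0.42 for achi, which was not. The largest difference of the list was that of fest, with 4.89 and 5.38 in females and 12.23 and 12.13 in males.

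Of 14 measured genes of male meiosis and germ cell differentiation, 8 were male-higher by at least 2-fold and 0 female-higher (median -2.04). The translational regulator gene bol had 6.28 and 6.50 in females and 11.51 and 11.44 in males, but its other probe sets gave 0.05 and 0.33 and were not called. Of the mitochondrial genes of the spermatid, knon differed by -5.27 ± 0.18 and the testis mitofusin gene fzo by -2.88 ± 0.18, whereas the general mitophagy gene Pink1 was not called (0.15). For the 2 genes that end the transit divisions of germ line cysts, bgcn differed by -3.72 ± 0.23 and bam by -0.27 (adjusted p = 0.0913). After recentring bam was called too (-0.54, adjusted p = 0.0121). The meiotic phosphatase gene twe had 4.74 and 5.30 in females and 5.73 and 5.76 in males, a difference below the 2-fold minimum.

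The Y chromosome, which females lack, carries a few genes needed for sperm. Of 7 measured ones, 5 were called male-higher and 3 of these by at least 2-fold, all at low or moderate levels. ARY, which encodes an aldehyde reductase, had 3.11 and 3.40 in females and 7.03 and 6.62 in males. Pp1-Y2, a protein phosphatase gene, had 4.92 and 4.73 against 7.70 and 7.71, and ORY 3.25 and 3.32 against 5.57 and 5.01. The dynein genes kl-2 (-0.72 ± 0.15) and kl-5 (-0.50 ± 0.19) were called, and kl-3 (-0.25, adjusted p = 0.111) and Ppr-Y (-0.37, adjusted p = 0.0741) were not. The other probe sets of kl-2 gave 0.24 and 0.18 and were not called. Values of kl-3 lay between 2.98 and 3.45 on all 4 arrays, near the lower end of the scale. After recentring all 7 genes were called male-higher, kl-3 at -0.52 (adjusted p = 0.0122) and Ppr-Y at -0.64 (adjusted p = 0.00945).

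These male-higher differences were present at the other stages too. Of the 749 genes at least 16-fold male-higher in pupae, all were called male-higher by at least 2-fold in larvae and 747 (99.7%) in adults. At the 16-fold minimum 272 were so in larvae (36.3% of the pupal and 98.2% of the 277 larval genes). In adults 693 were so (92.5% of the pupal and 77.6% of the 893 adult genes). The larval set is 2.31% of all genes and the adult set 7.45%. At the 2-fold minimum 12% of all genes were male-higher in larvae and 24.6% in adults. Median levels of the 749 genes in males were 8.531 in larvae, 10.124 in pupae and 10.195 in adults, and in females 4.788 to 4.841. Males of the pupal stage thus lay near those of adults. For single genes the change of the sex difference against larvae was -2.44 for S-Lap7 (adjusted p = 3.45e-05) and -2.05 for Mst77F (adjusted p = 0.000171). Against adults neither change was called, at -0.01 (adjusted p = 0.98) and -0.34 (adjusted p = 0.247). Of the 749 genes 74% had only a CG number as symbol, against 43.5% of all genes.

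The largest differences in favour of females were smaller, and of another kind. CG14624 had values of 10.99 and 10.71 on the female arrays and 3.85 and 4.12 on the male arrays, a difference of 6.87 ± 0.15 (adjusted p = 9.49e-11), or 117-fold. CG15615 followed at 9.86 and 11.77 in females and 4.52 and 4.76 in males (6.17 ± 0.46), and CG11693 at 11.62 and 11.99 against 5.53 and 6.02 (6.03 ± 0.17). The 15 largest lay between 4.75 and 6.87, and 11 of these genes had only a CG number as symbol. Over the 15, female arrays ranged from 8.19 to 13.07 and male arrays from 3.85 to 7.85. In each gene both female values lay above both male values, as the rule for naming them required.

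Named genes among the 15 belong to cuticle, pigment and the eye. Cpr72Ec, whose name places it among the cuticular proteins, had 11.05 and 10.69 in females and 5.55 and 5.73 in males (5.23 ± 0.16). The gene y, which encodes the secreted protein needed for black melanin, had 8.19 and 10.86 in females and 4.58 and 4.59 in males. Its difference of 4.94 ± 0.61 (adjusted p = 7.53e-05) has the widest error of the 15, and the female arrays lie far apart. Pdh encodes a retinol dehydrogenase of the eye's pigment cells, and had 10.65 and 10.50 in females and 5.38 and 5.41 in males (5.18 ± 0.13). Vajk4 was at 11.88 and 13.07 against 7.43 and 7.70, and its second probe set gave 5.33. CG42367 differed by 4.84 ± 0.12, but its second probe set by only 0.79.

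Cuticle and chitin genes were the list with the most members female-higher by at least 2-fold, and also the list with the most measured genes. Of 69 measured, 21 were female-higher by at least 2-fold and 3 male-higher, with a median of 0.66. After recentring the counts were 17 and 4 and the median 0.39. Over all genes the shares were 5.31% and 14.6%, and 2.82% and 16% after recentring. Muscle genes (7 of 24) and somatic genes with known sex differences (3 of 10) had similar female-higher shares before recentring. Cpr50Ca led the list with 12.46 and 12.50 in females and 7.82 and 8.14 in males (4.50 ± 0.13). Cpr66Cb differed by 3.75 ± 0.26, Cpr65Eb by 3.22 ± 0.15 and Cpr47Ec by 3.08 ± 0.27. Most members differed little: 45 of the 69 passed the 2-fold minimum in neither direction.

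Enzymes and organisers of chitin took part. Chitin is the polysaccharide of the cuticle, and serp, verm and Cda5 encode deacetylases that modify it. The gene serp had 12.41 and 12.49 in females and 10.17 and 10.20 in males (2.27 ± 0.10), Cda5 differed by 2.19 ± 0.10 and verm by 1.79 ± 0.09. The chitin-binding obstructor genes obst-B and obst-E differed by 1.63 ± 0.12 and 1.62 ± 0.17, and knk, which protects new chitin, by 1.27 ± 0.12. Of the 17 chitin genes, 7 were female-higher by at least 2-fold and none male-higher. The chitinase gene Cht5, whose product degrades old chitin at a moult, was lower in females, with 10.74 and 10.54 against 11.55 and 11.49 in males (-0.88 ± 0.12).

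The 3 cuticle genes that were male-higher by at least 2-fold were Edg84A, Cpr73D and Cpr72Ea. Edg84A, a pupal cuticle gene controlled by the prepupal factor ftz-f1, had 5.12 and 5.15 in females and 7.43 and 7.34 in males (-2.25 ± 0.15). Cpr73D differed by -1.91 ± 0.20 and Cpr72Ea by -1.08 ± 0.10. Neither Edg84A nor Cpr72Ea was called at this minimum in larvae or adults, where their differences were 0.30 and 0.04, and 0.22 and 0.43. In larvae the whole list had 7 female-higher and 0 male-higher members by at least 2-fold (1.89% and 12% of all genes were so), and in adults 2 and 13 (27.3% and 24.6% of all genes).

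Pigmentation genes differed by step. Of the 12 genes of cuticle oxidation, which act outside the cell, 6 were female-higher by at least 2-fold and 0 male-higher, with 5 and 0 after recentring. Besides y these were yellow-d2 (1.92 ± 0.18), yellow-e (1.74 ± 0.13), stw (1.58 ± 0.18), yellow-h (1.53 ± 0.22) and yellow-b (1.11). The laccase gene stw, which hardens cuticle, had 12.40 and 12.53 in females and 10.79 and 10.99 in males on the brightest probe set. Its 2 other probe sets pointed the other way, at -0.54 (adjusted p = 0.00644) and -0.21 (adjusted p = 0.0908). Of 7 enzyme genes of tyrosine and dopamine metabolism inside the cell, none passed the 2-fold minimum, and 1 did so in the male direction after recentring. Ddc had 7.56 and 7.36 in females and 7.63 and 7.26 in males. The gene ple was at 2.90 to 3.21 on all 4 arrays, near the lower end of the scale, where a difference would be hard to see. Pu, the first enzyme gene of pterin cofactor synthesis, was lower in females (-0.93 ± 0.18).

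Of 33 measured genes of the apical matrix and of hairs, 5 were female-higher and 5 male-higher by at least 2-fold, and after recentring 4 and 7. Over all genes the shares were 5.31% and 14.6%, so the male-higher share was near that of all genes. In the Osiris family, which acts in secretion of the cuticle, Osi14 had 8.04 and 8.93 in females and 5.33 and 5.13 in males (3.26 ± 0.23) and Osi2 differed by 2.13 ± 0.14. Others of the family were male-higher, namely Osi23 (-1.51 ± 0.17), Osi11 (-1.17 ± 0.12) and Osi13 (-1.04). Of 20 Osiris genes, 13 passed the 2-fold minimum in neither direction. Among zona pellucida domain genes, whose products form the apical matrix, zye was female-higher (2.10 ± 0.19), and pio (-1.32 ± 0.09) and mey (-1.09 ± 0.25) were male-higher.

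Genes of the ecdysone programme differed little. Of 22 receptor and response genes 2 were female-higher by at least 2-fold and 0 male-higher, MsrA, a sulphoxide reductase gene induced by ecdysone (1.32 ± 0.21), and Hr4, a nuclear receptor gene of the prepupal cascade. Hr4 had 9.32 and 9.86 in females and 8.29 and 8.28 in males (1.30 ± 0.47), and lost its call after recentring (1.03, adjusted p = 0.111) and when any one of 3 arrays was left out. Its 2 other probe sets were female-higher as well (0.76 and 0.59), and 1 of them after recentring (0.49, adjusted p = 0.0191). EcR, the receptor gene, was at 8.73 and 8.74 in females and 8.85 and 8.67 in males (-0.02 ± 0.27). In synthesis, sro had 7.40 and 7.42 in females and 5.93 and 5.92 in males (1.48 ± 0.14), whereas nvd, which acts at the first step, was lower in females (-0.87 ± 0.24). The call of nvd was lost when the first female or the first male array was left out (-0.47 and -0.59). For Cyp18a1, which inactivates ecdysone, values were 9.78 and 9.85 in females and 10.46 and 10.37 in males (-0.60, adjusted p = 0.0713), and after recentring the gene was called (-0.87, adjusted p = 0.0309).

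In the sex determination cascade the probe sets of 1 gene often disagreed. The 2 probe sets of dsx read opposite directions: one had 9.14 and 9.38 in females and 3.80 and 3.37 in males (5.67 ± 0.22), the other 7.45 and 7.58 against 8.40 and 8.34 (-0.85 ± 0.15). Sxl, the master switch gene, had 1 probe set at 7.69 and 7.77 in females and 4.98 and 4.98 in males (2.75 ± 0.11). Its other probe sets were at 9.06 and 8.99 against 9.08 and 8.93, and at 9.28 and 9.44 against 9.32 and 9.34, and neither was called. The female isoforms of both genes come from sex-specific splicing, and which isoform a probe set reads was not determined here. The splicing factor gene tra had 9.32 and 9.55 in females and 8.02 and 8.11 in males (1.37 ± 0.11).

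The male side of the cascade showed smaller differences. The dosage compensation gene msl-2, which acts in males, had 6.18 and 6.11 in females and 6.95 and 6.69 in males (-0.67 ± 0.12). Its partner genes mof (-0.44 ± 0.14) and msl-3 (-0.28) were also lower in females, mle (0.35) and msl-1 (0.52) were higher, and after recentring the latter 2 were not called. The calls lower in females depended on the scaling too. Of the 6 measured genes of the complex 3 were so called here, and 1 after subtracting array medians or with quantile normalization. Of 7 probe sets of fru, which controls male courtship circuits, 1 was lower in females (-0.90 ± 0.13), 1 higher (0.68 ± 0.15) and 5 were not called, with differences between -0.40 and -0.12. Of these 5, 2 were called lower in females after recentring, at -0.48 (adjusted p = 0.034) and -0.39 (adjusted p = 0.041). Of the 15 measured genes of this list only tra passed the 2-fold minimum on the probe set used.

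Of the 19 yolk and eggshell genes 13 were called female-higher in pupae, and 4 after recentring. Over all genes the shares were 50.3% and 20%, so the recentred share was near that of all genes. Yp3, 1 of the 3 yolk protein genes, had 8.54 and 8.47 in females and 5.79 and 5.89 in males (2.66 ± 0.17). Yp1 had 5.19 and 5.58 against 4.39 and 5.59 and was not called (0.40, adjusted p = 0.288), and Yp2 differed by 0.44 ± 0.16, which was not called after recentring (0.17, adjusted p = 0.427). The sex difference of Yp3 changed by -2.06 against larvae (adjusted p = 0.000214) and by -4.27 against adults (adjusted p = 1.6e-07). Of the 16 vitelline membrane and chorion genes none passed the 2-fold minimum in pupae. The largest was dec, a chorion gene, at 1.00 ± 0.23, and all 16 passed it in adults.

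Of 29 measured genes of the female germ line, 4 were male-higher and 1 female-higher by at least 2-fold, beside 14.6% and 5.31% of all genes, so the male-higher share was near that of all genes. The mRNA localisation gene exu had 6.33 and 6.45 in females and 10.82 and 10.47 in males (-4.25 ± 0.12), and a second probe set gave -8.50. The translational regulator gene BicC had 5.58 and 5.73 against 8.56 and 8.55 (-2.90 ± 0.15), and fs(1)N and ord differed by -1.41 ± 0.19 and -1.27 ± 0.28. The female-higher gene was orb, which controls oocyte translation, at 4.49 and 5.19 against 3.58 and 3.19 (1.46 ± 0.21). In adults exu was at a mean of 12.16 in females and 10.36 in males, and BicC at 13.31 and 9.07, so that these differences had the opposite sign there. The second probe set of exu did not turn, with adult means of 6.38 in females and 13.14 in males.

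In the piRNA pathway, which silences transposons in the gonads, 3 of 23 genes were male-higher and 1 female-higher by at least 2-fold, which is also near the shares over all genes (14.6% and 5.31%). The female-higher gene was piwi itself, with 6.26 and 6.70 in females and 5.17 and 4.78 in males (1.51 ± 0.19). The male-higher ones were mael (-1.93 ± 0.14), squ (-1.25 ± 0.09) and Hen1 (-1.07 ± 0.14). The other Piwi family genes were not called, with -0.01 for aub and 0.00 for AGO3. In adults 19 of the 23 genes were female-higher by at least 2-fold and 0 male-higher.

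Genes of male reproductive tract secretions rarely differed by much in pupae. Of 26 measured, 1 was male-higher by at least 2-fold, Acp36DE, a sperm storage protein gene. It had 4.28 and 4.14 in females and 5.80 and 5.70 in males (-1.54 ± 0.18), against a mean of 14.32 in adult males. Gld, the glucose dehydrogenase gene of the ejaculatory duct and of the pupal cuticle, was female-higher, with 11.88 and 12.02 against 10.51 and 10.85 (1.28 ± 0.20). In adults 25 of the 26 were male-higher by at least 2-fold. The sex difference of EbpII, a gene of the ejaculatory bulb, was 0.67 ± 0.17 in pupae and not called after recentring (0.40, adjusted p = 0.107).

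Among somatic genes with known sex differences in adults, 3 of 10 were female-higher by at least 2-fold and 1 male-higher. The transporter gene kar had 9.95 and 9.90 in females and 7.90 and 8.29 in males (1.83 ± 0.14), and fit, a fat body gene, had 9.16 and 8.81 against 7.17 and 7.78 (1.51 ± 0.22). The fatty acid elongase gene bond, which is needed in spermatocytes as well, had 5.95 and 6.20 in females and 9.78 and 9.67 in males (-3.65 ± 0.11). Among insulin-like peptide genes Ilp5 was female-higher, with 6.15 and 6.39 against 4.74 and 5.21 (1.29 ± 0.17), the only 1 of the 15 insulin and juvenile hormone genes to pass the 2-fold minimum.

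Cell division genes divided by role. Of 6 genes of mitotic exit and cytokinesis, 4 were male-higher by at least 2-fold and 0 female-higher. The securin gene pim had 4.89 and 4.84 in females and 8.29 and 8.34 in males (-3.45 ± 0.11). The gene fzy, an activator of the anaphase promoting complex, differed by -2.17 ± 0.10, feo by -1.45 ± 0.11 and Incenp by -1.18 ± 0.17. Other probe sets of fzy gave 0.01 and 0.66, so this gene is uncertain. Of 14 DNA replication genes none was male-higher, and 13 were called female-higher, 2 of them by at least 2-fold, PolA1 (1.11 ± 0.11) and Prim1 (1.05 ± 0.14). Both fell under that minimum after recentring, at 0.84 and 0.78, and 5 of the 14 stayed called female-higher. Over all genes 50.3% were called female-higher, and 20% after recentring.

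Muscle, neuron, eye and chemosensory genes had medians a little above that of all genes. Of all genes 50.3% were called female-higher, 5.31% by at least 2-fold, and 2.82% by at least 2-fold after recentring. Of 24 muscle genes 19 were called female-higher and none male-higher (median 0.76). After recentring 13 of them stayed called female-higher and 0 were male-higher, beside 20% and 24.2% of all genes. By at least 2-fold 7 muscle genes were female-higher, which fell to 1 after recentring. That gene was Mf, which encodes a thick filament protein, with 8.30 and 8.61 in females and 6.88 and 6.94 in males (1.55 ± 0.15). The flight muscle genes fln and TpnC4 differed by 1.13 ± 0.23 and 0.63, and Act88F was not called (0.12, adjusted p = 0.648). Of 27 neuronal genes 23 were called female-higher and none male-higher, 2 by at least 2-fold, para and Shal. After recentring 9 of the 27 were called female-higher and 0 male-higher, none by at least 2-fold. Of 35 genes of smell and taste 3 passed the 2-fold minimum in females, and 0 after recentring, when 11 were called female-higher and 4 male-higher without a minimum.

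The eye genes contained larger single differences. Of 23 measured, 4 were female-higher by at least 2-fold and 1 male-higher, and 2 and 1 after recentring. Besides Pdh, the light-activated channel gene trp had 8.52 and 8.06 in females and 5.96 and 6.24 in males (2.19 ± 0.18), and the rhabdomere gene chp differed by 1.15 ± 0.16. The arrestin gene Arr1, which ends the response to light, went the other way, with 5.06 and 5.29 against 6.90 and 7.15 (-1.85 ± 0.14). The second arrestin gene, Arr2, differed by 0.63. In adults, 13 of the 23 genes were male-higher by at least 2-fold and none female-higher.

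Lists of other tissues had few members past the 2-fold minimum. Of 27 products of larval tissues, 1 was female-higher by at least 2-fold and 0 after recentring. Of 33 digestive enzymes, 4 were female-higher, kappaTry (1.74 ± 0.22), Mal-A2 (1.35 ± 0.19), etaTry (1.34 ± 0.18) and alphaTry (1.22 ± 0.14), each at values between 4.30 and 7.58 in pupae. Of 32 immunity and stress genes 3 were, led by TotC, a stress-induced humoral factor gene, with 5.73 and 5.97 in females and 3.91 and 4.13 in males (1.83 ± 0.26). Drsl2, an antimicrobial peptide gene of the same list, lost its call when any 1 of the 4 arrays was left out. Of 32 ribosomal protein genes, 84 having been listed, 2 were male-higher by at least 2-fold. These were the duplicate genes RpS10a (-1.94 ± 0.18) and RpS5b (-1.02 ± 0.10), while 28 of the others lay between -0.06 and 0.13 and were not called. After recentring 14 of the 32 ribosomal protein genes were called male-higher, beside 24.2% of all genes.

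**Figure D3:**
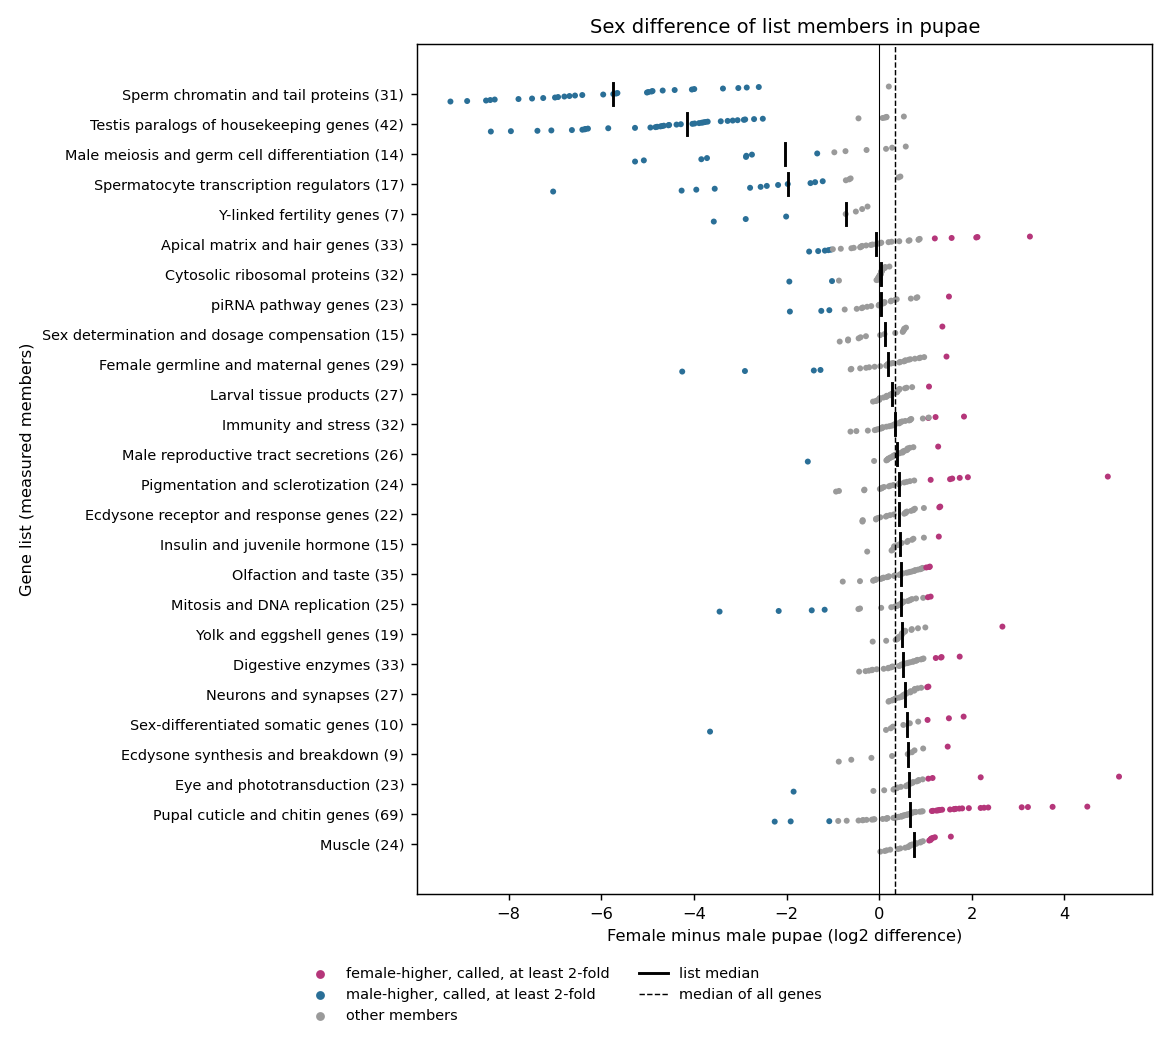
Female minus male log2 differences in pupae of each measured member of 26 gene lists, in order of the list medians (black bars). The dashed line is the median of all genes at 0.34, and 4 lists of testis genes have medians between -5.74 and -1.97.

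The most strongly female-higher genes had their peak in pupae. Of the 28 genes at least 16-fold female-higher, 26 had their highest mean of all 6 groups in female pupae, against 22% of all genes. This comparison is a description only, since choosing genes that are high in female pupae favours that group. Median levels of the 28 genes were 11.254 in female pupae, 6.229 in male pupae and 4.792 to 5.523 in the other 4 groups. Male pupae thus lay above each of the other groups except female pupae in this median. The exceptions to the peak in female pupae included Pdh, whose adult means were 10.81 in females and 12.99 in males.

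In adults and larvae the same genes showed little of this difference. None of the 28 was called at least 16-fold female-higher in larvae, where 1 gene was (0.00835%), or in adults, where 214 were (1.79%). At the 2-fold minimum, 50 of the 636 pupal female-higher genes were shared with larvae (7.86% of the pupal and 22% of the 227 larval genes). With adults 71 were shared (11.2% of the pupal and 2.17% of the 3268 adult genes). Over all genes 1.89% were female-higher by at least 2-fold in larvae and 27.3% in adults. The share of pupal genes was thus above that of all genes in larvae and below it in adults. The change of the sex difference itself was tested in the same fit. It was called for 7.74% of probe sets in the female and 9.78% in the male direction against larvae, and for 25.5% and 26.1% against adults. For CG14624 the sex difference was 6.50 larger in pupae than in larvae (adjusted p = 2.16e-07) and 6.38 larger than in adults (adjusted p = 4.99e-09). For Cpr50Ca these values were 4.46 (adjusted p = 1.16e-06) and 4.62 (adjusted p = 1.77e-08). For tra, in contrast, neither change was called, at 0.25 (adjusted p = 0.292) and 0.20 (adjusted p = 0.29).

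**Figure D4:**
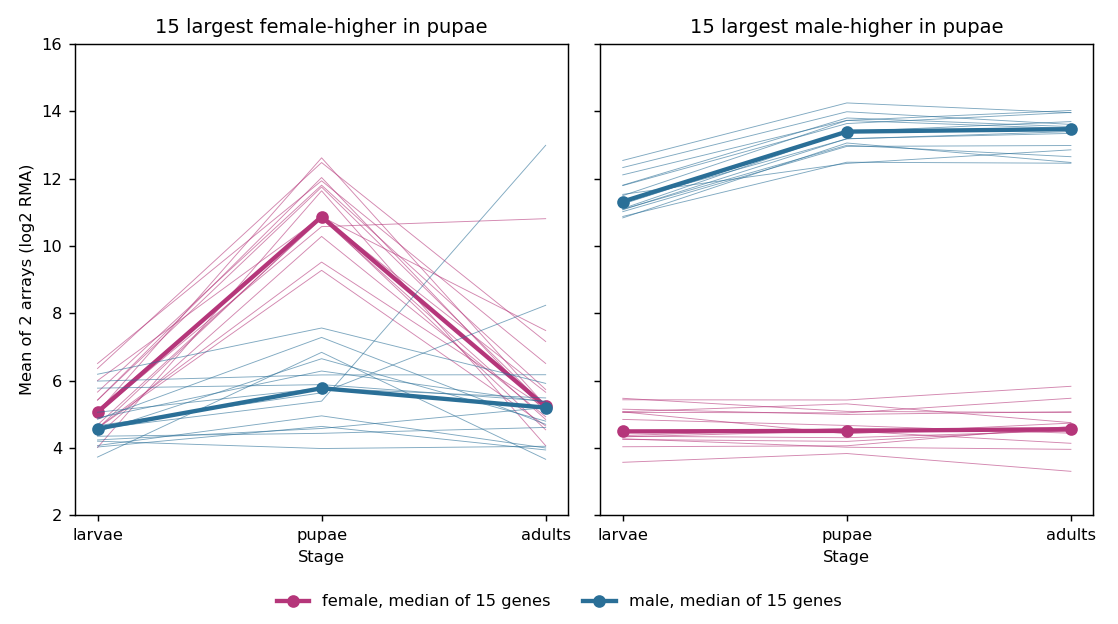
Group means (log2 level, 2 arrays each) of the 15 genes with the largest female-higher (left) and male-higher (right) difference in pupae over the 3 stages, with thin lines for genes and thick lines for the median. On the left the female median is 5.07 in larvae, 10.87 in pupae and 5.23 in adults, and the male median stays between 4.58 and 5.78. On the right the male median is 11.32, 13.40 and 13.47 and the female median stays near 4.5.

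By chromosome arm, the share of strongly male-higher genes was lowest on the X among the large arms. At least 16-fold male-higher were 4.06% of the 1873 measured X genes, and 8.44% on 2L, 6.10% on 2R, 6.23% on 3L and 6.36% on 3R. At the 2-fold minimum the X share was 13% and the autosomal arms lay between 13.8% and 18.4%. Female-higher shares at 2-fold were 6.30% on the X and 4.44% to 5.55% on these arms. Of the 65 measured genes on chromosome 4, 1 was male-higher and 4 female-higher. These are descriptions with no test, since genes of an arm are not replicates.

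**Figure D5:**
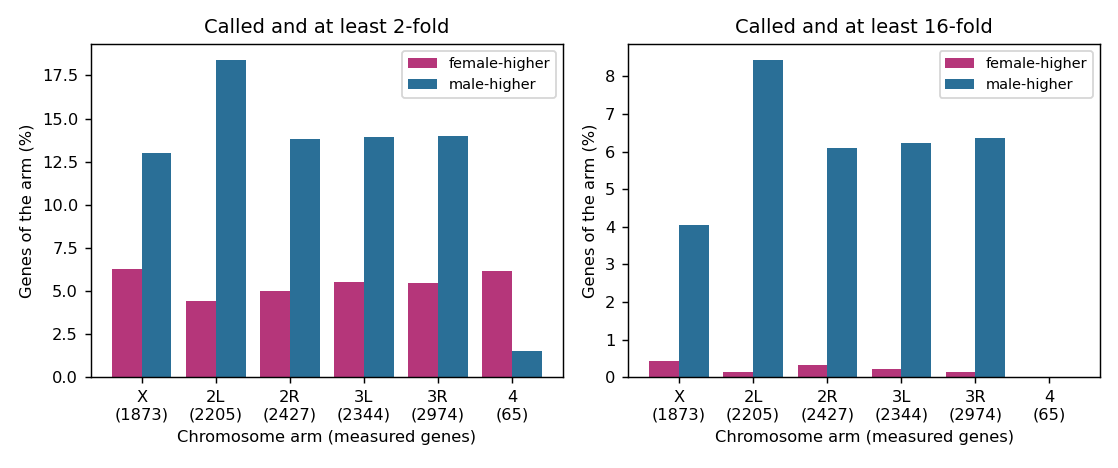
Share of the measured genes of each chromosome arm called female-higher or male-higher in pupae, by at least 2-fold (left) and at least 16-fold (right), with the number of genes in brackets. The 2L arm has the highest male-higher share in both panels, 18.4% and 8.44%.

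Some genes with a sex difference lay next to each other. At the 2-fold minimum 19.6% of the placed female-higher genes had a neighbour in their set, which held 5.33% of all placed genes. For male-higher genes these values were 43.5% and 14.5%. The 2 shares are not the same measure, since a gene may have a neighbour on either side, and no test was run. The genes named in this paragraph were chosen after their values were seen. On the X, 8 measured genes in a row were female-higher, CG14627, CG14626, CG11380, CG14625, CG11381, CG14624, CG11382 and CG11398, by 1.01 to 6.87. Within this row CG11380 had 12.38 and 12.57 in females and 8.03 and 8.20 in males, and CG11381 had 6.18 and 5.82 against 3.81 and 3.94. On 3R, 6 genes in a row from CG17782 to CG13616 were female-higher by 1.53 to 3.79, and 10 in a row from Pif2 to CG31286 were male-higher, with differences between -7.50 and -4.19. Neighbours that are copies of each other may share probe sequence, which was not examined here.

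The 2 arrays of a sex were not equally close for female-higher genes. Of the 636 genes at 2-fold, 21 had female array 2 above female array 1 by at least 1 unit and 0 the reverse, against 48 and 34 of all 11982 genes. Besides y, whose female arrays were at 8.19 and 10.86, these included CG15615 and CG15545 (10.97 and 12.53). Without the first female array the CG15615 difference was 7.12, and without the second 5.21, both called. Of the 636 genes, array 2 lay above array 1 for 415 in females, 413 in males and 247 in both. For all 11982 genes these counts were 6559, 5878 and 3134. For the 28 genes at least 16-fold female-higher they were 20, 27 and 19. Among the 749 strongly male-higher genes the male arrays differed by a median of 0.089 and the female arrays by 0.290.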

How the data were processed

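RNA of whole female and male LHm flies, as larvae, pupae and adults, was measured on 12 Affymetrix arrays, 2 biological replicates per group. The authors deposited log2 expression values per probe set, made with RMA per the submitters' processing notes. The RMA version is not given in the sources used here, and normalization between arrays, which RMA includes by default, may itself move the overall difference between the sexes.

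The table held 18952 probe sets without missing values (2.47 to 15.61). After removal of 183 controls, limma (3.58.1, R 4.3.3) fitted 6 group means over all 12 arrays, so that the groups share one spread (6 residual and 4.1 prior degrees of freedom), with the contrast female minus male pupae and its change against larvae and adults. The number of arrays limits the precision. Probe sets with 1 annotated gene (13647) were named, 402 had several and 4720 had none, and each of 11982 genes was represented by its probe set of highest mean. RefSeq names (Release 6 plus ISO1 MT) held 13544 of the 13647, with 0 symbols changed. Of 869 entries in 26 lists 666 were measured. Under 80% of entries were measured for the Y-linked, female germline, mitosis, ecdysone response, pigmentation, eye, muscle, larval, immunity, ribosomal and insulin lists.

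The members and lists were chosen with earlier results of these data known. Named are the 15 largest called differences each way with separated arrays, up to 4 called members per list, the sex determination and yolk genes with every probe set, the Y-linked list, and the 4 largest changes each way between stages. List members outside this rule are named as examples and were chosen after their values were seen. Tests were checked on simulated data. Over all probe sets, samples sharing a replicate number did not deviate together (correlation -0.051 between female and male pupae), so replicate was no factor in the fit. Among female-higher genes the second array was more often the higher one in both sexes, as given above.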

Additional observations from a re-analysis of the deposited data

Results flagged for a closer look

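Results are given here because the sex difference in pupae itself differed from that at another stage by a limma contrast in the same fit. Groups of 2 arrays are too small to look for single outlying samples.

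Against larvae, the sex difference was called larger in the female direction for 1452 probe sets and in the male direction for 1835. The largest changes towards females were CG14624 (6.50), CG15615 (5.51), CG11693 (5.43) and CG13154 (5.38), all with larval means of 4.03 to 5.66 in both sexes. Towards males they were Pen (-4.42), sip2 (-3.92), CG4995 (-3.53) and CG31174 (-3.42). Pen, an importin gene, had 7.58 and 7.61 in female and 13.31 and 13.31 in male pupae, and larval means of 10.82 and 12.12.

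Against adults, 4783 probe sets were called in the female and 4891 in the male direction. The largest positive changes were in genes of male secretions that were low in pupae of both sexes and at 13.94 to 14.97 in adult males, EbpII (11.75), Ebp (11.44), Acp63F (11.17) and Acp53Ea (11.10). The largest negative ones were in genes high in adult females, mtrm (-8.97), Yp2 (-8.76), osk (-8.13) and Cp19 (-8.09).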

How the results depend on the processing

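With 2 arrays per group and a shift over all probe sets, counts of small female-higher differences depended most on scaling. Against 9745 probe sets higher in females, there were 15133 with array-median centring, 3311 with recentring, 3291 with cyclic loess (chosen after seeing the data), 6123 with 1 probe set per gene and 771 at the 2-fold minimum. Those 771 were 3726, 395 and 404 under the first 3 of these scalings and 1421 with quantile normalization, and with array-median centring they outnumbered the 1757 lower in females by at least 2-fold. The changes against larvae in the female direction (1452) were 950 with recentring, 777 with cyclic loess, 432 at the 2-fold minimum and 906 without the first male array, and those against adults (4783) were 2913 at the 2-fold minimum. Leaving out 1 pupal array gave 7111 to 8162 probe sets higher and 2467 to 2565 lower in females, and by at least 2-fold 830 to 956 and 1929 to 1969. The changes against larvae ranged over 906 to 1242 and 1535 to 1788, and those against adults over 4237 to 4803 and 4614 to 4835. The replicate number as a block gave 9584 higher and 2674 lower and does not pair the samples. Counts of the male-higher direction stayed within 1.5 times under every alternative run. Of the named genes, 17 lost their call with recentring, 19 with cyclic loess and 9 to 14 without 1 array. Promoter motifs were not run.

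Differences near 0 changed sign: RpL27 (-0.046) and Acp53Ea (-0.033) with recentring, and Acp53Ea also with cyclic loess (-0.088) and quantile normalization (-0.0088). Leaving out 1 array gave -0.20 to 0.995 for Yp1. The 2 flat Sxl probe sets gave -0.25 and -0.24 with recentring, -0.24 and -0.23 with cyclic loess, and ranges of -0.0515 to 0.097 and -0.047 to 0.11 without 1 array. Array-median centring gave 0.12 for kl-3 and 0.0072 for Ppr-Y, which were called male-higher with recentring (-0.52 and -0.64), cyclic loess (-0.57 and -0.70) and quantile normalization (-0.45 and -0.63). It gave 0.19, 0.16, 0.25 and 0.25 for 4 fru probe sets. Of these fru probe sets, 3 gave 0.17, 0.18 and 0.14 with quantile normalization, and 3 ranged over -0.46 to 0.085, -0.26 to 0.018 and -0.65 to 0.40 without 1 array. The cause was not tested.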
